A study of Arabidopsis thaliana with 6 samples.

Results

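RNA polymerase II is the nuclear enzyme that makes messenger RNA, and in plants its subunits are named NRPB. The genes described here were the probe sets that carry a single gene symbol beginning with NRPB and a digit in the platform annotation. They were to be selected by the highest mean over the 6 arrays wherever a gene had more than 1 probe set. Each gene had only 1, so that measured value left nothing to choose. The rule found 6 genes among 13513 probe sets with a single symbol and 22746 tested probe sets: NRPB7 (AT5G59180), NRPB6A (AT5G51940), NRPB6B (AT2G04630), NRPB9A (AT3G16980), NRPB9B (AT4G16265) and NRPB12 (AT5G41010). A further 1 probe set carried an NRPB symbol together with the symbol of another gene and was not used. The catalytic subunits and the other NRPB genes were not analysed here.

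All 6 arrays came from whole rosettes, 5 to 6 weeks old, of Arabidopsis thaliana. The plants were pgm mutants (Col-0), a line that lacks plastidic phosphoglucomutase and makes hardly any starch. No wild type was among the samples, so every group carries the mutation. Plants spent 4 hours at low CO2 in prolonged darkness, at low CO2 in light, or at normal CO2 in light, with 2 arrays per treatment labelled replicates A and B. Each RNA came from a pool, for which the protocol names 15 ground rosettes, and the series text calls the replicates biological. The comparison of light with darkness at low CO2 is called the light step below, and that of normal with low CO2 under illumination the CO2 step.

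RNA polymerase II transcribes protein-coding genes with a core of catalytic and assembly subunits, to which a stalk is attached. NRPB7 belongs to the stalk, which in yeast sits beside the exit of the nascent transcript. The subunit encoded by the NRPB6 genes is common to the nuclear RNA polymerases and helps to hold the enzyme together. The NRPB9 subunit lies at the jaw where DNA enters and in yeast contributes to the accuracy of transcription. NRPB12 is a small zinc-binding subunit that all nuclear RNA polymerases share. The gene table used for names also lists NRPB6A, NRPB9A, NRPB9B and NRPB12 as subunits of the plant-specific RNA polymerases IV and V, under NRPD and NRPE synonyms, and NRPB6B under NRPE6B. NRPB7 has no such synonym there.

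Arrays were comparable in scale, with median intensities of 34.6 to 39.55. Replicates A and B of a group correlated across probe sets with r between 0.971 and 0.984 on the log2 scale. Genes of photosynthesis were bright, as in green tissue, with a lowest intensity of 1448 among PSAN, PSAE-1, LHCB4.2 and SBPASE. The ratio of the 3 prime to the 5 prime ubiquitin control was 1.69 and 1.95 at normal CO2 in light, while the 4 low-CO2 arrays had 1.38 to 1.48. That ratio, a measure of RNA quality, therefore moved with the CO2 step, and its part in the results below was not tested. The same ratio of GAPDH was 0.949 and 1.08 at normal CO2 against 1.02 to 1.13 on the low-CO2 arrays. That of GAPDH did not separate the groups. For actin the ratio was 2.63 and 2.84 at low CO2 in light, above 2.16 and 2.60 at normal CO2. In darkness it was 1.97 and 2.34. The actin ratio thus separated low CO2 in light from both other groups, and its part was not tested either. Intensities are relative to the rest of the same array. In whole rosettes, a change in the number of cells of a type and a change in the RNA per cell cannot be told apart.

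Transcripts of NRPB7, NRPB9B and NRPB12 rose in the CO2 step, with log2 fold changes of intensity + 7.3 of 0.84 to 1.01 (the constant 7.3 steadies dim values), and those of NRPB6A, NRPB6B and NRPB9A did not pass the test. In all, 3 of the 6 genes rose, 0 fell and 3 did not pass the threshold of 0.05 on limma's adjusted p. Over all tested probe sets 8.4% rose and 6.2% fell in that step. The median log2 fold change was 0.84 over the 6 genes, against -0.01 over all tested probe sets. On all 6 genes both arrays of normal CO2 read above both arrays of low CO2 in light, which held for 29.6% of all tested probe sets. With 6 genes, proposed with earlier results of these data known, these counts describe the genes and test nothing about them as a group. With arrays shifted to a common median, 1574 probe sets were higher and 1742 lower in this step, against 1911 and 1410 as reported, and 2 of the 6 genes rose.

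**Figure D1:**
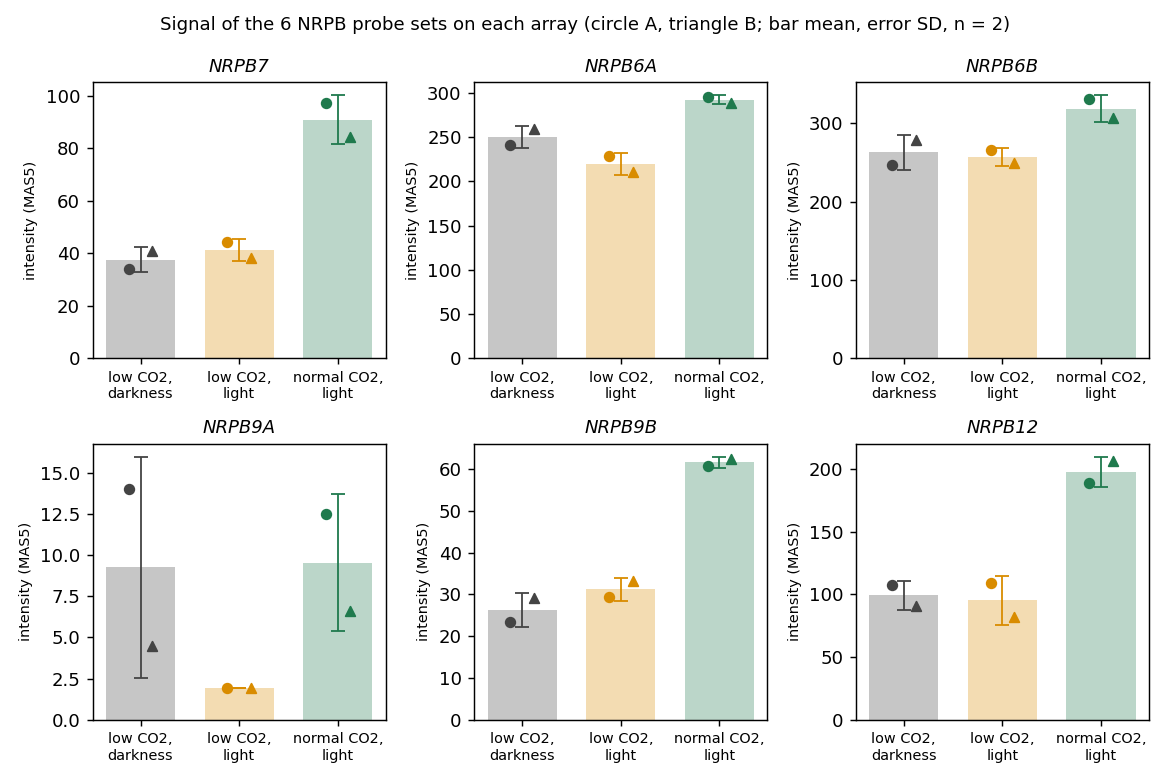
Intensity of each of the 6 NRPB probe sets (vertical axis, linear MAS5 units, starting at 0) by treatment, with replicate A as a circle, replicate B as a triangle, the mean as a bar and the SD as an error bar (n = 2). Every gene but NRPB9A sits higher on both arrays of normal CO2 than on any of the 4 low-CO2 arrays. NRPB9A stays at or below 14 on every array.

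The stalk gene NRPB7 read 34.2 and 40.9 in darkness (replicates A and B), 44.3 and 38.3 in light at low CO2, then 97.4 and 84.4 at normal CO2 in light. Both arrays of normal CO2 were above all 4 arrays of low CO2, and the 2 low-CO2 groups overlapped. In the CO2 step its mean went from 41.3 ± 4.24 to 90.9 ± 9.19 (SD, n = 2), a ratio of 2.20. The log2 fold change was 1.01 ± 0.19 (SE; limma adjusted p = 0.0203), with a 95% interval from 0.56 to 1.47. Within replicate A alone it was 1.02, and within B 1.01.

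NRPB12, the small subunit shared by the nuclear polymerases, read 107.5 and 91 in darkness, 109.1 and 81.6 in light at low CO2, then 188.8 and 206 at normal CO2 in light. The arrays of normal CO2 again stood above all others, and the low-CO2 groups overlapped. From 95.4 ± 19.4 to 197 ± 12.2 (SD, n = 2), the ratio in the CO2 step was 2.07. NRPB12 rose by 1.01 ± 0.18 on the log2 scale (SE; limma adjusted p = 0.0195), with a 95% interval from 0.57 to 1.45. Replicate A alone gave 0.75 and replicate B 1.26, so the size differed between the letters more than for NRPB7.

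NRPB9B, one of the pair of genes for the jaw subunit, read 23.4 and 29.2 in darkness, 29.3 and 33.2 in light at low CO2, then 60.6 and 62.5 at normal CO2 in light. Its 3 groups did not overlap, with darkness lowest, although 29.2 and 29.3 lie side by side. In the CO2 step NRPB9B went from 31.3 ± 2.76 to 61.6 ± 1.34 (SD, n = 2), a ratio of 1.97. The log2 fold change was 0.84 ± 0.19 (SE; limma adjusted p = 0.0375; 95% interval 0.37 to 1.31). Its adjusted p of the CO2 step was the highest of the 3 called genes, and the call held under 6 of 14 alternatives. It ended without any 1 of the 6 arrays (adjusted p = 0.0575 to 0.171 by limma), with arrays shifted to a common median (0.0510) and in a model of only the 4 arrays compared (0.0546).

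NRPB9A, the other gene for the jaw subunit, was dim throughout. It read 14 and 4.5 in darkness, 1.9 on both arrays of low CO2 in light, and 12.5 and 6.6 at normal CO2 in light. Darkness and normal CO2 overlapped, and low CO2 in light was lowest. The mean over the 6 arrays was 6.90, under the 7.3 that was added before taking logs, and 4 of the 6 arrays read below that constant. The CO2 step gave 0.85 ± 0.31 (SE; limma adjusted p = 0.129), with an interval from 0.09 to 1.61. That size rests on the added constant: it was 1.80 with 1 added and 0.29 with 32 added. Without detection calls, which the sources used here do not give, whether this probe set was above background is not known.

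NRPB6A and NRPB6B, the pair of genes for the shared assembly subunit, had log2 fold changes of 0.40 and 0.30 in the CO2 step, the 2 lowest of the 6 genes. NRPB6A read 241.6 and 258.9 in darkness, 228.4 and 210.6 in light at low CO2, then 295.7 and 289.1 at normal CO2 in light. Its 3 groups did not overlap, with low CO2 in light lowest. NRPB6B read 246.9 and 278.4 in darkness, 265.2 and 249 in light at low CO2, then 330.5 and 306.9 at normal CO2 in light. For NRPB6B the 2 low-CO2 groups overlapped and normal CO2 stood above both.

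Neither gene of the NRPB6 pair passed the test. For NRPB6A the log2 fold change of the CO2 step was 0.40 ± 0.12 (SE; limma adjusted p = 0.0809), a ratio of means of 1.33. For NRPB6B it was 0.30 ± 0.13 (limma adjusted p = 0.185), a ratio of 1.24. The 95% intervals ran from 0.10 to 0.70 for NRPB6A and from -0.01 to 0.62 for NRPB6B. Within replicates A and B the values were 0.36 and 0.44 for NRPB6A and 0.31 and 0.29 for NRPB6B. Their positive sign adds no support, since both arrays of normal CO2 read above both of low CO2 in light. The upper ends of these intervals lie above the lower ends of those of NRPB7 and NRPB12, and the difference between genes was not tested.

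**Figure D2:**
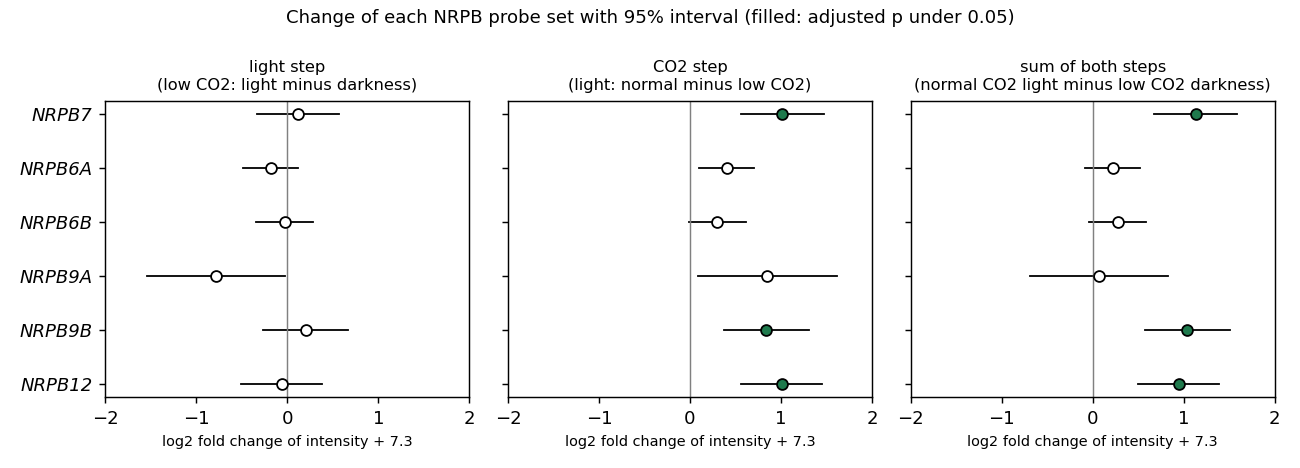
Log2 fold change of intensity + 7.3 (horizontal axis) of each NRPB gene in the light step, the CO2 step and their sum, with limma's 95% interval as a line and filled points for adjusted p under 0.05. NRPB7, NRPB9B and NRPB12 are filled in the CO2 step and in the sum, and no point is filled in the light step.

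In the light step at low CO2, 0 of the 6 genes rose and 0 fell, against 0.849% and 0.193% of all tested probe sets. An unadjusted limma p under 0.05 was found for 1 of the 6 genes and for 3758 of the 22746 tested probe sets. The median log2 fold change of the 6 was -0.05, against 0.02 over all tested probe sets. NRPB7 had 0.12 (95% interval -0.34 to 0.57), NRPB9B 0.20 (-0.27 to 0.67) and NRPB12 -0.06 (-0.50 to 0.38). NRPB6A had -0.18 (-0.48 to 0.12) and NRPB6B -0.03 (-0.34 to 0.29). NRPB9A had the unadjusted p of 0.0447, with a log2 fold change of -0.79 (95% interval -1.54 to -0.03) and an adjusted p of 0.286 by limma. Its interval was the widest and the only 1 without 0, from readings mostly below the added constant. The intervals allow changes in the light step of up to about 0.7 on the log2 scale for NRPB9B and down to -1.54 for NRPB9A. Equal levels in light and darkness are thus not shown.

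Whether the steps differ was tested as the CO2 step minus the light step, and 0 of the 6 genes passed. Of the 22746 tested probe sets 153 were higher (0.673%) and 275 were lower. At an unadjusted limma p under 0.05 stood 4 of the 6 genes and 4735 of the 22746 tested probe sets. All 6 values were positive, with NRPB12 at 1.07 ± 0.32 (SE; limma adjusted p = 0.131), NRPB7 at 0.90 ± 0.32 (adjusted p = 0.189) and NRPB9B at 0.64 ± 0.34 (adjusted p = 0.351). NRPB9A had 1.64 ± 0.54 (adjusted p = 0.162), NRPB6A 0.59 ± 0.21 (adjusted p = 0.193) and NRPB6B 0.33 ± 0.23 (adjusted p = 0.478). Both steps use the arrays of low CO2 in light, so a low reading there raises the CO2 step and lowers the light step. A response to CO2 that differs from the response to light was thus not shown for any of the 6 genes.

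**Figure D3:**
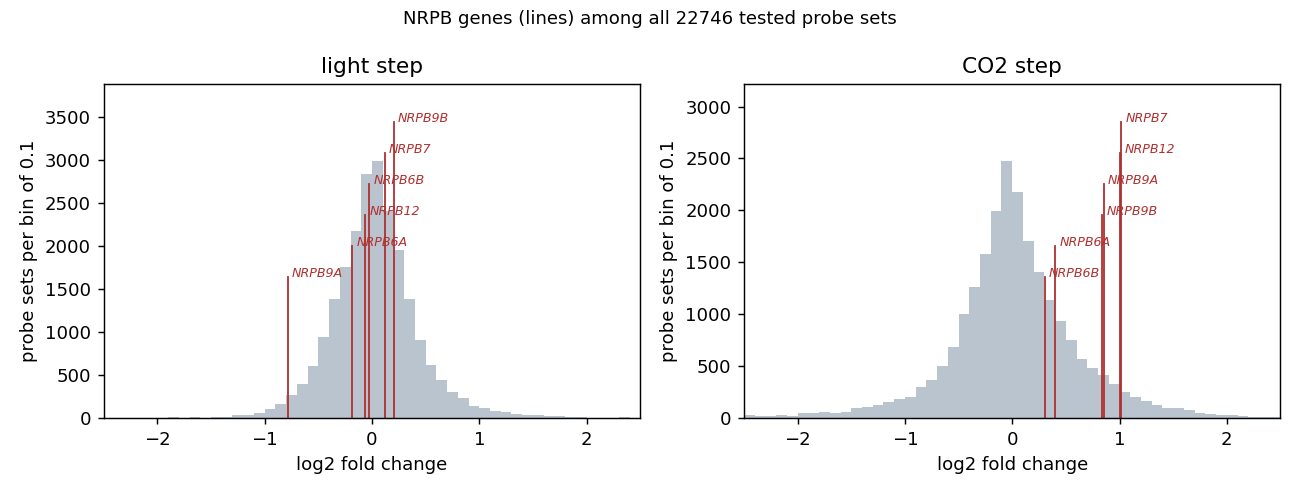
Number of tested probe sets per bin of 0.1 (vertical axis) by log2 fold change (horizontal axis) in the light step (left) and the CO2 step (right), with a line for each NRPB gene. In the light step 5 of the lines stand between -0.18 and 0.20, and in the CO2 step all 6 stand between 0.30 and 1.01.

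From low CO2 in darkness to normal CO2 in light, the sum of both steps, 3 of the 6 genes rose and 0 fell. Of all tested probe sets 11.3% rose and 9.13% fell in this comparison. The genes that rose were again NRPB7, NRPB9B and NRPB12. NRPB7 had a log2 fold change of 1.13 ± 0.19 (SE; limma adjusted p = 0.0105), a ratio of means of 2.42. NRPB9B had 1.04 ± 0.19 (limma adjusted p = 0.0151), a ratio of 2.34, and NRPB12 0.95 ± 0.18 (limma adjusted p = 0.0167), a ratio of 1.99. The sum uses the same arrays of normal CO2 as the CO2 step, so it is no second observation of the rise.

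The other 3 genes did not pass in the sum. NRPB6B had 0.27 (95% interval -0.04 to 0.59), NRPB6A 0.22 (-0.08 to 0.52) and NRPB9A 0.07 (-0.69 to 0.83). On 5 of the 6 genes both arrays of normal CO2 read above both of darkness, as did 31.8% of all tested probe sets, and NRPB9A was the gene with overlapping groups. Side by side, the genes for the jaw subunit had log2 fold changes of 1.04 (NRPB9B) and 0.07 (NRPB9A) in the sum, the latter from values near or below the added constant, and their difference was not tested.

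Each of the 3 calls in the CO2 step rests on both arrays of normal CO2. Without replicate A or without replicate B of that group, 0 of the 6 genes and 0 of all probe sets passed in limma, while 5835 and 4779 probe sets had an unadjusted p under 0.05. Without low CO2 in light replicate B, 0 of the 6 passed as well. The log2 fold changes ran from 0.81 to 1.20 for NRPB12 over 14 alternatives, from 0.74 to 1.12 for NRPB7 and from 0.57 to 0.96 for NRPB9B. Every 1 of the 6 genes had a positive CO2 step under all alternatives run for it. For each gene both arrays of normal CO2 read above both of low CO2 in light. Leaving out an array or changing the added constant therefore could not turn the sign.

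**Figure D4:**
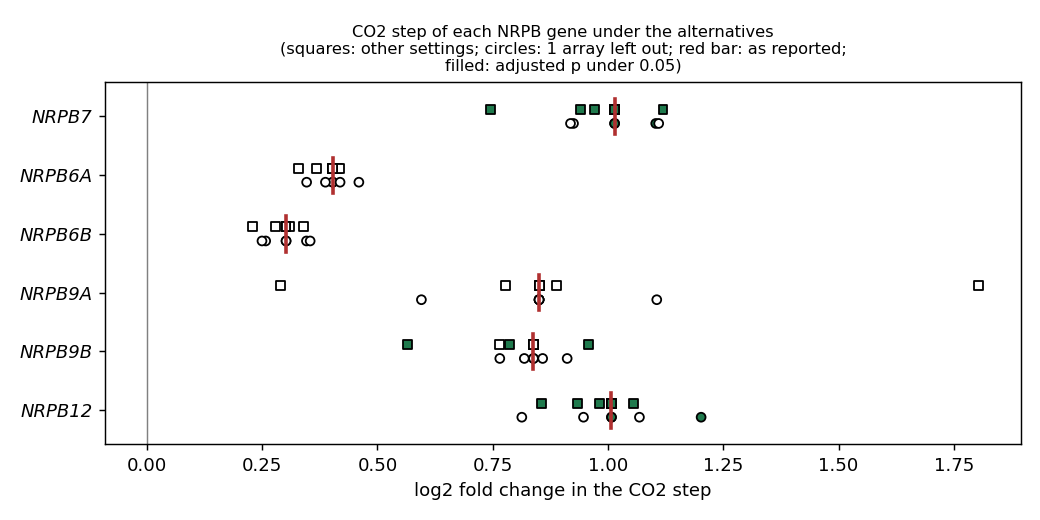
Log2 fold change of the CO2 step (horizontal axis) of each NRPB gene, as reported (red bar), under other settings (squares) and with 1 array left out (circles), filled where the adjusted p was under 0.05. All points lie right of 0, and NRPB9A spreads widest, from 0.29 to 1.80.

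Other RNA polymerases gave a frame for these values. In each list below, a locus counted as measured if it matched a probe set with a single gene symbol. Of the tested probe sets 8730 had no symbol and 503 had several, so a locus not measured here may still be on the array. For RNA polymerases I and III, which make ribosomal RNA precursors and small RNAs such as transfer RNA, 12 of 18 listed genes were measured. Of these 12, 7 rose and 0 fell in the CO2 step, where 8.4% of all tested probe sets rose and 6.2% fell. Their median log2 fold change was 0.98, against -0.01 over all tested probe sets. The values ran from -0.56 to 1.59, and 10 of the 12 were positive. The largest were in NRPA1, the largest subunit of polymerase I, AT3G13940 and NRPA2, the second subunit of polymerase I. At low CO2 in light NRPA1 read 17 and 11.2, against 47.4 and 67.5 at normal CO2, and it rose by 1.59 ± 0.26 (SE; limma adjusted p = 0.0149). NRPA2 read 74.8 and 65.7, then 160.2 and 200.6, and rose by 1.27 ± 0.17 (limma adjusted p = 0.00997). AT3G13940 rose by 1.45 ± 0.23 (limma adjusted p = 0.0140). In all 3 genes both arrays of normal CO2 were above both of low CO2 in light, as on 29.6% of all tested probe sets. These 3 were picked for their large called changes, which favours such a separation, so it adds no support. In the light step 0 of the 12 passed, with 0.849% of all tested probe sets higher and 0.193% lower. In the sum of both steps 6 of the 12 rose and 1 fell, against 11.3% and 9.13% of all tested probe sets. The count of 7 in the CO2 step was 1 without low CO2 in light replicate B and 0 without either array of normal CO2.

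For RNA polymerases IV and V, which act in RNA-directed DNA methylation, 2 of 10 listed loci were measured beside the NRPB genes with NRPD or NRPE synonyms. These were the stalk genes NRPE7 and NRPD7. NRPE7 had a log2 fold change of 0.14 and NRPD7 of -0.06 in the CO2 step, neither past the threshold (limma adjusted p = 0.736 and 0.896). Both are counterparts of NRPB7, which rose by 1.01. The difference between NRPB7 and these genes was not tested. AT5G15700 was the 1 measured of 3 loci listed for the organelle polymerases. It went from 4.7 and 5.2 at low CO2 in light to 22.7 and 36.2 at normal CO2. It rose by 1.56 ± 0.22 (SE; limma adjusted p = 0.0111) from a level below the added constant, and the value was 2.32 with 1 added and 0.73 with 32 added. The call ended in 3 of 13 alternatives. AT1G61700 and AT1G53690, listed as loci like polymerase II subunits, were dim on all arrays, between 8.2 and 16.3, and had -0.30 and -0.02 (limma adjusted p = 0.418 and 0.969).

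Only part of the loci listed for factors that work with RNA polymerase II matched a single-symbol probe set. These were 9 of 30 general transcription factor loci, 2 of 21 for elongation and related enzymes, and 2 of 3 for assembly and import. Their calls in the CO2 step are to be read against 8.4% of all tested probe sets that rose and 6.2% that fell. Of 9 measured loci listed for its general transcription factors, which place the enzyme at promoters, 0 passed in the CO2 step (median 0.21). AT4G24440 had 0.69 and AT3G52270 0.57 (limma adjusted p = 0.0590 and 0.0551), and AT3G52270 read 6 or less on every array. In the light step 0 of these 9 loci rose and 1 fell, against 0.849% and 0.193% of all tested probe sets. The 1 that fell was AT4G20330, named after its values were seen. It went from 254.9 and 246.9 in darkness to 133.2 and 137.8 in light, a log2 fold change of -0.85 (limma adjusted p = 0.0499). That call ended under 11 of 14 alternatives. Both elongation loci measured, AT5G08565 (synonym SPT4-1) and AT2G34210 (synonym SPT5-1), did not pass, with 0.58 ± 0.50 (SE) and -0.02 in the CO2 step. AT2G34210 read between 0.6 and 1.9 on every array, below the added constant, so -0.02 does not show whether its level changed. AT5G08565 read 17.6 and 5.9 at low CO2 in light, then 10.1 and 35 at normal CO2, so these groups overlapped. QQT2 and IYO, factors linked to assembly and import of the polymerase, had 0.29 and 0.22 and did not pass.

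Mediator is the complex that connects activators with RNA polymerase II, and 14 of its 33 listed loci were measured. Of these 14, 1 rose and 1 fell in the CO2 step, with a median of 0.02. These counts are close to the 8.4% and 6.2% of all tested probe sets. AT1G26665 went from 124.6 and 169.4 at low CO2 in light to 46.7 and 42.1 at normal CO2, a log2 fold change of -1.56 ± 0.18 (SE; limma adjusted p = 0.00762). AT5G48630 rose by 0.59 ± 0.14 (limma adjusted p = 0.0394), a call that ended under 9 of 14 alternatives. Over both steps 0 Mediator loci rose and 3 fell, where 11.3% of all tested probe sets rose and 9.13% fell: AT1G26665 (-2.14), MED6 (-1.12) and MED19A (-0.95), the last pair named after their values were seen.

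**Figure D5:**
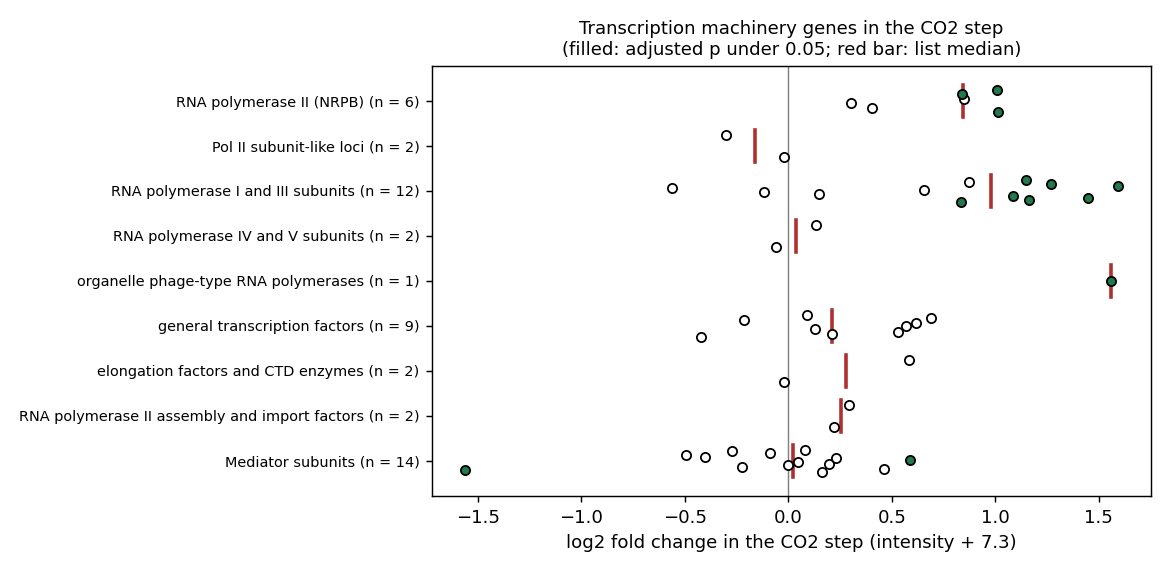
Log2 fold change in the CO2 step (horizontal axis) of each measured gene of the transcription machinery lists (rows, with the number measured), filled where the adjusted p was under 0.05, with the list median as a red bar. NRPB genes have a median of 0.84 and genes of polymerases I and III of 0.98, while the 14 Mediator loci centre on 0.02.

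Genes with the pattern most like the mean of the 6 NRPB genes were sought among 13507 other single-symbol probe sets, by the root mean square difference of centred log2 values over the 6 arrays. The 5 nearest were AT4G35880 (0.0464), AT5G21105 (0.0472), AT2G20390 (0.0536), AT5G35160 (0.0586) and AT1G09660 (0.0587), all in log2 units. AT5G21105, for example, read 61.2 and 57.4 in darkness, 53.5 and 51.3 in light at low CO2, then 105.9 and 89.9 at normal CO2. The 6 NRPB genes themselves lay farther from their own mean, from 0.180 for NRPB6A to 0.387 for NRPB9A. The 5 other genes were picked as the nearest of 13507, so this comparison does not show how alike the NRPB genes are.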

How the data were processed

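Total RNA was labelled with biotin and hybridised to single-colour Affymetrix arrays, per the labels' protocols. The deposited values are linear intensities made by the authors with MAS5, per the submitters' processing notes. The sources used here give neither its version and scaling target nor any detection calls. The mean after trimming 2% at each end was 100.01 on every array, so no normalization was added. The number of arrays limits the precision.

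From the deposited intensities, log2(intensity + 7.3) was computed, 7.3 being the 20th percentile of tested values, which understates changes of dim probe sets. After 64 control probe sets were removed, limma 3.58.1 in R 4.3.3 fitted 3 group means to all 6 arrays and 22746 probe sets (eBayes with a mean-variance trend, 3 residual degrees of freedom). Benjamini-Hochberg adjustment ran over all probe sets within each contrast, with a threshold of 0.05 and no fold minimum. The model was tested on simulated data.

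Names came from the platform annotation, matched by Entrez ID to the TAIR10.1 gene table for 13436 of 13513 single symbols. All NRPB genes are named, and of each other list the genes past the threshold in the CO2 step that changed most (at most 3), or else the 2 of smallest p. Genes and lists were chosen with earlier results of these data known. Alternatives were the added constant (1 or 32), a minimum mean of 32, quantile normalization, a common median, no variance trend, the 4 arrays compared, the letter as a block, and each array left out.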

Additional observations from a re-analysis of the deposited data

How the results depend on the processing

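Over the alternatives tried for the NRPB genes, 218 of 249 values of single NRPB genes kept their sign and their side of the threshold, 24 calls ended, 7 uncalled values turned sign and 0 calls were gained. The number of NRPB genes called in the CO2 step, 3 as reported, ran from 0 to 2 when 1 array was left out, and that of the sum, also 3, from 0 to 3. In the CO2 step the calls over all probe sets were 567 higher and 646 lower without low CO2 in light replicate B, and 0 without either array of normal CO2. Without low CO2 in darkness replicate A or B the sum kept 1 call. In the light step the 193 higher and 44 lower probe sets became 0 and 0 in a model of the 4 arrays compared (3445 at unadjusted p under 0.05) and 338 and 137 with the letter as a block, with 0 NRPB genes called in each. In the sample titles the letters A and B are replicate names, with no further meaning given. Deviations of same-lettered arrays correlated with r = 0.307 between darkness and light at low CO2, and 0.159 and 0.0153 between the other pairs of groups. The bioC control read 66.3 to 73.8 on the A arrays and 116.2 to 157.3 on the B arrays, so that control differed by letter. With the letter as a replicate block, 0, 3, 3 and 0 NRPB genes were called in the light step, the CO2 step, the sum and the difference between the steps, so the block changed no call count. Values that turned sign were all uncalled. NRPB9A in the sum had -0.033 with a common median and ran from -0.36 to 0.49 over left-out arrays. In the light step NRPB12 ran from -0.26 to 0.13 and NRPB6B from -0.11 to 0.056 over left-out arrays. For the 9 called genes named outside the family (NRPA1, NRPA2, AT3G13940, AT5G15700, AT1G26665, AT5G48630, AT4G20330, MED6 and MED19A), checked under the same alternatives after seeing the data, 0 of the values given as calls turned sign. The other uncalled genes named were not rerun. The 7 higher genes of RNA polymerases I and III became 0 to 8. NRPB9A was removed by the minimum mean of 32, which 5 of the 6 genes passed. All probe sets of each gene in place of the brightest changed nothing, since each gene had 1.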

Other observations

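NRPB9A, which read below the added constant on 4 of the 6 arrays, weighed on the mean pattern used to find like genes. Left out, a choice made after seeing the data, the 5 nearest genes were AT2G18520, AT1G63850, AT5G40530, AT3G56120 and AT1G71430, with root mean square differences of 0.0306 to 0.0529 in log2 units. None of them was among the 5 found with NRPB9A included. AT1G63850 read 61.3 and 64.3 in darkness, 68.5 and 60.2 in light at low CO2, then 117.9 and 111.5 at normal CO2 in light. The actin control, taken at its middle probe set, also read higher at normal CO2, with 824.1 and 849.4. It read 536.2 and 414.7 in darkness, and 454.4 and 324.1 on the illuminated low-CO2 arrays. Its part in the NRPB values was not tested.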
